A study of Homo sapiens with 12 samples.

Results

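Fatty acid oxidation was followed here through 32 genes in HepG2 cells, an established human line from a hepatocellular carcinoma that retains many hepatocyte functions. The list was drawn up by symbol and holds the transcriptional regulator PPARA with 2 of its partners, the mitochondrial and peroxisomal enzymes of β-oxidation, and genes known as PPARA targets. All 32 symbols were matched to a gene ID among the 47634 IDs in the count files. Of these, 27 had enough counts to be tested and 5 did not, namely PDK4, CYP4A11, VNN1, ACOT1 and FGF21.

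The libraries came from 2 HepG2 lines, 1 in which ATP7B had been knocked out (KO) and the unedited wild type (WT). ATP7B is the copper-exporting ATPase of the hepatocyte, whose loss causes Wilson disease. Each line was exposed to copper for 24 h or left untreated, which gave KO copper, KO untreated, WT copper and WT untreated groups of 3 libraries. The labels call the libraries biological replicates but do not say that they came from separate cultures, so p-values measure the spread between these libraries, which may be partly technical. The labels give neither the copper dose nor the nature of the edit, and name a single KO line, so a difference between KO and WT cannot be told apart from a difference between 2 lines of cells. RNA was measured by QuantSeq, a 3′ mRNA assay that reads 1 end of each transcript, so counts were not divided by transcript length.

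A fatty acid is first activated to an acyl-CoA. The carnitine shuttle (CPT1A, SLC25A20, CPT2) carries long chains into the mitochondrion, where repeated rounds of dehydrogenation, hydration, a second dehydrogenation and thiolysis shorten the chain and release acetyl-CoA. Electrons from the first dehydrogenation pass through the electron transfer flavoprotein to the respiratory chain. Peroxisomes run a parallel pathway with their own enzymes on very long and branched chains. PPARA, a nuclear receptor activated by fatty acids, binds DNA with RXRA at elements of the DR1 type, in which 2 AGGTCA half-sites are separated by 1 base, and raises the transcription of genes in both compartments.

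Library totals ran from 976658 to 3829151 counts. Levels are given in CPM, the count scaled to a common library total. The limit that a count of 0 allows, 3 counts, lay between 0.783 CPM in the deepest library, WT untreated replicate 2, and 3.07 CPM in the shallowest, KO untreated replicate 2, for counting error only. ATP7B itself had 3.92 to 6.77 CPM in KO copper, 2.05 to 11.6 CPM in KO untreated, 3.87 to 5.34 CPM in WT copper and 12.3 to 13.1 CPM in WT untreated libraries, so a 3′ signal remained in KO cells, and the labels do not place the edit relative to it. WT copper replicate 1 and KO untreated replicates 1 and 2 stood apart from the other 9 libraries on the first principal component of all genes, which held 44.3% of the variance. Their scores were 23.9, 111.4 and 120.4, and all others lay below 0. These 3 were also the shallowest libraries, with 1873703, 1443372 and 976658 counts, where every other library had at least 2295050. They had the fewest genes with a count as well, 15012, 14232 and 13481. Whether depth set them apart was not tested. Among the 27 tested members, 22 deviated in the same direction in WT copper replicate 1 (against replicates 2 and 3) and in KO untreated replicates 1 and 2 (against replicate 3), 11 upwards and 11 downwards. Member calls that change when these 3 libraries are left out are therefore given both ways, with the reservation that KO untreated then rests on replicate 3 alone, whose spread is then borrowed from the other libraries.

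The hepatocyte markers ALB, AFP, APOA1, APOB, TTR, SERPINA1 and FGB were all detected. Their summed level was 3222 to 3412 CPM in KO copper, 7056 to 8897 CPM in KO untreated, 7231 to 8271 CPM in WT copper and 15633 to 16495 CPM in WT untreated libraries. The sum thus moved with both copper and the KO, in the direction of most member calls. By gene, the log2 fold changes with copper were below 0 for all 7 markers in both lines. For KO against WT, 6 were below 0 and 1 above in copper, and 4 below and 3 above untreated. The part of these markers in the results below was not tested. In bulk RNA, fewer cells of a kind and less RNA per cell cannot be told apart. Summed markers of other cell types were far below the hepatocyte sum in all groups, but not all were absent. Enough counts to be tested were found for 2 fibroblast genes and 1 leukocyte gene. The leukocyte gene was called higher with copper in WT (log2 fold change 0.90) and lower in KO than in WT in copper (-1.41). The 2 fibroblast genes were called in no comparison. The summed fibroblast list stayed at or below 52.6 CPM with DCN at 0 in KO copper and LUM at 0 in KO untreated cells, the leukocyte list at or below 43.2 CPM with CD3E at 0 in all 4 groups, and the endothelial list, of which 3 of 4 genes were matched, at or below 10.2 CPM with KDR at 0 in all 4.

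Copper lowered part of the list in both lines. In KO cells, 13 of the 27 tested members fell and 1 rose with copper, where 18.5% of the 11051 tested genes fell and 15.2% rose. In WT cells, 11 members fell and none rose, where 6.68% of all tested genes fell and 8.23% rose. Copper libraries lay wholly below untreated ones for 14 members in KO (25.1% of all tested genes) and 20 in WT (27.1%), and wholly above for 1 in KO (19.1%) and 0 in WT (21.3%). The median log2 fold change of the members was -0.98 in KO cells and -0.74 in WT cells, beside 0.01 and -0.03 over all tested genes. Members that fell with copper in both lines were PPARGC1A, CREB3L3, EHHADH, ACAA1 and HADHB. All calls are at an adjusted p under 0.05 from edgeR's quasi-likelihood test, with Benjamini-Hochberg adjustment over the 11051 genes, and all errors of log2 fold changes are standard errors. Unless another fit is named, called and not called refer to the fit of all 12 libraries.

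Loss of ATP7B went with mixed changes. Among untreated cells, 3 members were higher and 7 lower in KO than in WT, where 17.9% of all tested genes were higher and 14% lower, and the members' median was -0.29 beside -0.02. In copper, 1 member was higher and 11 lower in KO, where 5.77% of all tested genes were higher and 8.03% lower, and the members' median was -0.56 beside 0.05. KO libraries lay wholly above WT libraries for 4 members in copper (26.4% of all tested genes) and 2 untreated (25.7%), and wholly below for 16 in copper (20%) and 9 untreated (19.1%). The untreated comparison thus called members about as often as genes at large, 31.9% of which were called. PPARA, PPARGC1A, ECI2, PLIN2, ANGPTL4 and FABP1 were lower in KO in both treatments. PPARGC1A was lower in all 4 comparisons, and ACADM, ACOT2, CPT2, ETFA and SLC25A20 were called in none.

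How many members were called depended on single libraries. For copper in WT, the 11 called members became 2, 3 and 2 without WT untreated replicates 1, 2 and 3, and 7, 2 and 7 without WT copper replicates 1, 2 and 3, while 6.4% to 12% of all tested genes were called in these 6 fits. For KO against WT in copper, the 12 became 4, 5 and 4 without KO copper replicates 1, 2 and 3, and 7 without WT copper replicate 1, while 5.9% to 8.24% of all tested genes were called. With no filter on low counts, the calls on HADHB, HADH and ECI2 in that comparison ended (adjusted p 0.077 to 0.141), as did those on HADHB (0.079) and ACAA2 (0.117) for copper in WT. For KO against WT untreated, the 10 of 27 became 19 of 29 without KO untreated replicate 3, where 59% of all tested genes were called. Of 28 members tested without the 3 libraries that stood apart, 22 were called for copper in KO and 23 for copper in WT, beside 39.6% and 40% of all tested genes. The members first called for copper in WT (11 of 11) and for KO against WT in copper (12 of 12) remained called in the same direction, as did 13 of 14 for copper in KO and 8 of 10 for KO against WT untreated.

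**Figure D1:**
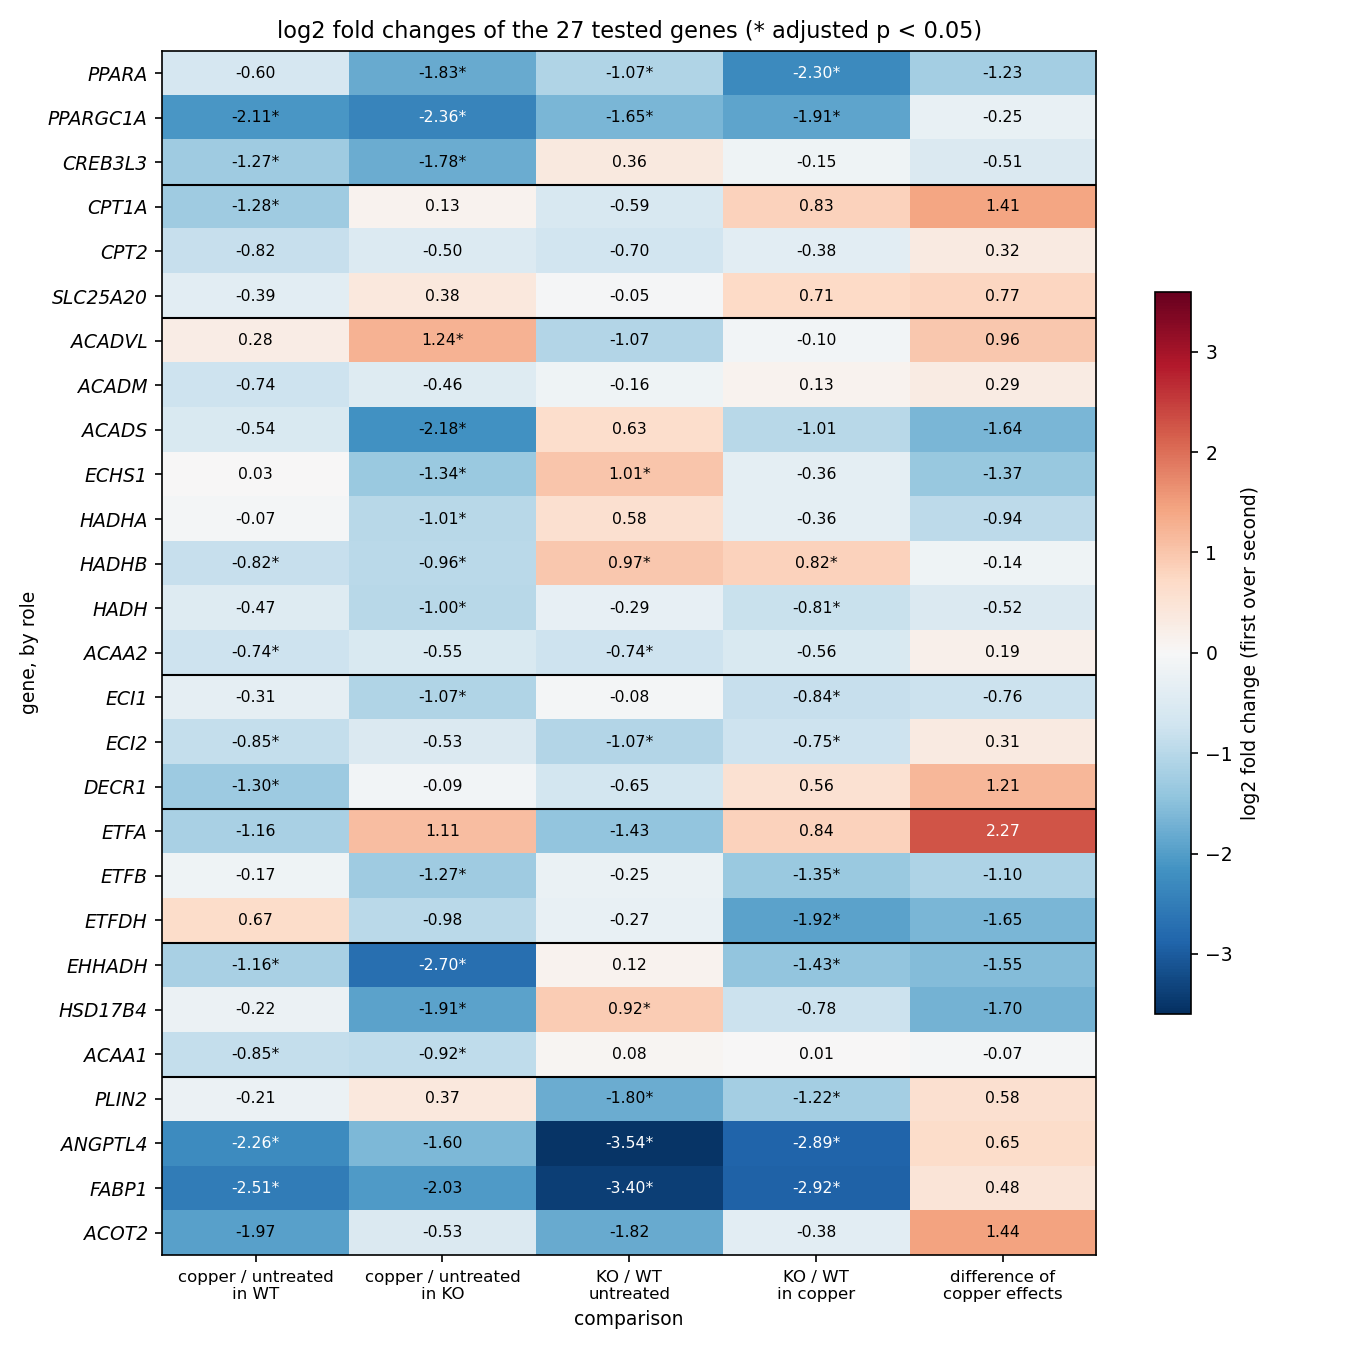
Log2 fold changes of the 27 tested members (rows, grouped by role) in the 5 comparisons (columns), with an asterisk where the adjusted p is under 0.05. The column for copper in KO cells holds 13 lower and 1 higher calls, and the column for the difference of the copper effects holds none.

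PPARA, the receptor itself, was lowest in copper-treated KO cells. It had 13.5, 13.4 and 14.7 CPM in KO copper libraries and 70.0, 53.2 and 37.5 CPM in KO untreated libraries. It had 82.2, 65.4 and 53.1 CPM in WT copper libraries and 111.2, 100.0 and 98.0 CPM in WT untreated libraries. The KO copper libraries lay below every other library and the WT untreated libraries above every other, while KO untreated and WT copper overlapped each other. PPARA fell with copper in KO cells by 1.83 ± 0.27 on the log2 scale (adjusted p = 0.00057), and was lower in KO than in WT both in copper (-2.30 ± 0.27, adjusted p = 0.00032) and untreated (-1.07 ± 0.26, adjusted p = 0.0091). The copper effect in WT was -0.60 ± 0.25 and did not pass (adjusted p = 0.13), although the libraries did not overlap; without the 3 libraries that stood apart it was -0.74 (adjusted p = 2e-05). In a fit of the 2 untreated groups alone, the untreated difference was not called (adjusted p = 0.069), and without the 3 libraries that stood apart it was -1.66.

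PPARGC1A, the coactivator PGC-1α that drives mitochondrial gene programmes, was lower in copper and lower in KO. It had 1.78, 2.51 and 1.19 CPM in KO copper, 6.93, 9.21 and 14.0 CPM in KO untreated, 10.1, 3.92 and 6.58 CPM in WT copper, and 30.1, 31.3 and 28.6 CPM in WT untreated libraries. No group overlapped its comparison partner, but the KO copper values lie near the limit that a count of 0 allows. The fall with copper was 2.36 ± 0.44 in KO (adjusted p = 0.0019) and 2.11 ± 0.34 in WT (adjusted p = 0.0021) on the log2 scale. Against WT, KO was lower in copper (-1.91 ± 0.45, adjusted p = 0.015) and untreated (-1.65 ± 0.34, adjusted p = 0.0045). The difference in copper was no longer called without WT copper replicate 1, KO copper replicate 1 or KO copper replicate 3 (adjusted p 0.059 to 0.075).

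CREB3L3, the liver transcription factor CREBH that acts with PPARA in the fasting response, fell with copper in both lines and was not called between them. It had 2.85, 5.86 and 5.97 CPM in KO copper libraries, against 14.5, 21.5 and 18.9 CPM in KO untreated libraries (-1.78 ± 0.32, adjusted p = 0.0017). It had 6.40, 5.23 and 4.26 CPM in WT copper libraries, against 14.8, 12.01 and 12.1 CPM in WT untreated libraries (-1.27 ± 0.32, adjusted p = 0.019). Untreated and copper-treated libraries were separate in each line. KO minus WT was -0.15 ± 0.35 in copper (adjusted p = 0.82) and 0.36 ± 0.29 untreated (adjusted p = 0.35). The WT call was lost without any 1 of WT untreated replicates 1 to 3 or WT copper replicates 2 and 3 (adjusted p 0.054 to 0.080).

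**Figure D2:**
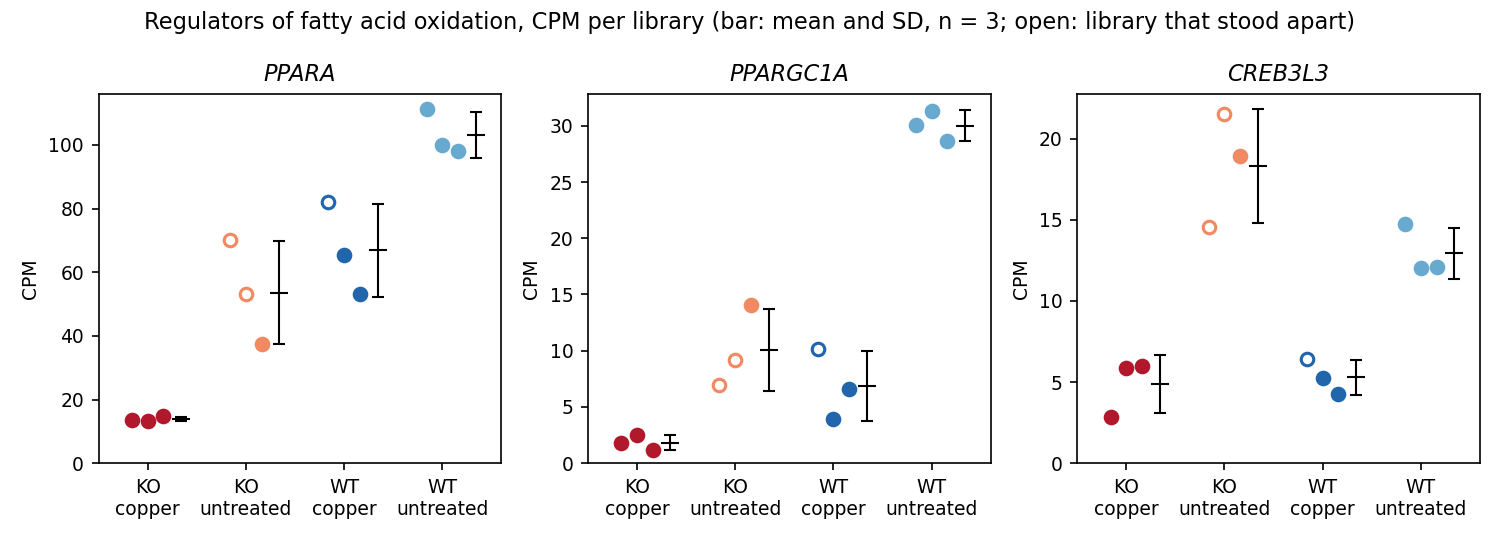
CPM of PPARA, PPARGC1A and CREB3L3 in each library (points) with the group mean and SD (bars), for KO copper, KO untreated, WT copper and WT untreated, with open points for the 3 libraries that stood apart. The KO copper points of PPARA sit between 13.4 and 14.7 CPM, below all other libraries.

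To show what sequence the regulators and their targets carry near the start of transcription, the 250 bases before the annotated start were searched for the DR1 element, AGGTCA then any 1 base then AGGTCA, on both strands. RefSeq windows (GRCh38.p14) were found for 25 of the 32 members. With at most 1 mismatch the element was in 1 of the 25, CREB3L3, beside 0.288% of 35114 promoter windows, and with at most 2 mismatches in 3 of the 25, beside 2.57% of all windows. These 3 are printed here because each gene was called in a comparison, with the matched 13 letters in capitals. A match is a description of letters, not a binding site. In CREB3L3 (chr19:4153381-4153630, plus strand) the match has 1 mismatch and lies 222 to 210 bases before the start. In FABP1 (chr2:88128063-88128312, minus strand) it has 2 mismatches, reads on the opposite strand and lies 68 to 56 bases before the start. In ACAA2 (chr18:49813534-49813783, minus strand) it has 2 mismatches and lies 76 to 64 bases before the start. The sequences are given 5′ to 3′ on the gene's strand.
CREB3L3: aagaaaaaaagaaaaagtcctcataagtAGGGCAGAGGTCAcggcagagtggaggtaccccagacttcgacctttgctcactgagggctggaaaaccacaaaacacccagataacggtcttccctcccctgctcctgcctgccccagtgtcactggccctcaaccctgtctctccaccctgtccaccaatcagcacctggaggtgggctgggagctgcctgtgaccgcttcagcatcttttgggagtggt
FABP1: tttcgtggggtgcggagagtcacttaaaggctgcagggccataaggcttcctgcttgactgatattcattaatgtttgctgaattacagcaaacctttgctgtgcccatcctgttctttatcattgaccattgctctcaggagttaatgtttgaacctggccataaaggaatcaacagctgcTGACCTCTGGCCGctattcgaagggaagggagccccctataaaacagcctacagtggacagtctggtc
ACAA2: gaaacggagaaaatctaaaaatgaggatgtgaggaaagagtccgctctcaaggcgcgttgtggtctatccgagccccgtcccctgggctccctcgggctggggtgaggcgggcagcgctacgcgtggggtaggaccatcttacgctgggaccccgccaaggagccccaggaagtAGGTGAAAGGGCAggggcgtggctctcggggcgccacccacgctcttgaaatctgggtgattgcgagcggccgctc

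In the carnitine shuttle, the calls were limited to CPT1A, the rate-limiting acyltransferase at the outer mitochondrial membrane, and to copper in WT. CPT1A had 106.1, 88.8 and 89.6 CPM in KO copper and 62.4, 58.4 and 162.0 CPM in KO untreated libraries, a difference of 0.13 ± 0.32 (adjusted p = 0.77). It had 37.9, 61.0 and 58.1 CPM in WT copper and 129.4, 138.4 and 120.7 CPM in WT untreated libraries, and fell by 1.28 ± 0.32 on the log2 scale (adjusted p = 0.021). WT libraries were separate by treatment, while the KO untreated libraries spanned the whole KO range with replicate 3 high and replicates 1 and 2, which stood apart, low. Without the 3 libraries that stood apart, CPT1A was lower with copper in KO too (-0.59, adjusted p = 0.00080) and higher in KO than in WT in copper (0.59, adjusted p = 0.00045). The WT call was lost without any 1 of WT untreated replicates 1 to 3 or WT copper replicates 1 and 2 (adjusted p 0.057 to 0.081).

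CPT2, the inner-membrane acyltransferase, averaged 9.93 ± 1.3 CPM in KO copper, 14.3 ± 11 CPM in KO untreated, 12.7 ± 0.80 CPM in WT copper and 22.8 ± 2.6 CPM in WT untreated libraries (SD, n = 3 each). SLC25A20, the carnitine-acylcarnitine translocase, averaged 11.5 ± 1.7 CPM in KO copper, 8.78 ± 6.0 CPM in KO untreated, 6.76 ± 2.9 CPM in WT copper and 9.12 ± 1.4 CPM in WT untreated libraries. Neither passed in any comparison, with adjusted p from 0.14 to 0.67 for CPT2 and from 0.28 to 0.93 for SLC25A20. For CPT2 this depended on the 3 libraries that stood apart: without them it was called lower with copper in KO (-1.21, adjusted p = 0.00033) and in WT (-0.74, adjusted p = 0.0079), and the WT fall was also called in a fit of the 2 groups alone (0.020).

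In the mitochondrial spiral, the short-chain enzymes fell with copper in KO cells. ACADS, the short-chain acyl-CoA dehydrogenase, had 73.7, 75.8 and 75.6 CPM in KO copper and 492.6, 403.4 and 197.1 CPM in KO untreated libraries. It had 201.7, 104.1 and 135.6 CPM in WT copper and 220.9, 219.1 and 215.6 CPM in WT untreated libraries. The KO copper libraries were the lowest of all 12 and nearly equal, and the 2 highest were the KO untreated libraries that stood apart. ACADS fell with copper by 2.18 ± 0.34 on the log2 scale in KO (adjusted p = 0.00074). In WT the difference was -0.54 ± 0.33 (adjusted p = 0.29). Without the 3 libraries that stood apart ACADS fell by 1.22 in KO and by 0.80 in WT (adjusted p = 2.6e-07). KO minus WT was then -0.76 in copper (adjusted p = 2.7e-06), against -1.01 ± 0.33 (adjusted p = 0.063) with all 12, and -0.35 untreated (adjusted p = 0.038), against 0.63 ± 0.33 (adjusted p = 0.15) with all 12.

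ECHS1, the short-chain enoyl-CoA hydratase, and HADH, the short-chain hydroxyacyl-CoA dehydrogenase, carry out the next steps on short chains. ECHS1 had 299.5, 297.2 and 324.9 CPM in KO copper and 1005, 965.5 and 534.6 CPM in KO untreated libraries, and 479.3, 345.1 and 328.4 CPM in WT copper and 368.5, 407.1 and 379.9 CPM in WT untreated libraries. It fell with copper in KO (-1.34 ± 0.27, adjusted p = 0.003), where the groups were separate, and was near level in WT (0.03 ± 0.26, adjusted p = 0.96), where they overlapped. Untreated KO cells had more ECHS1 than untreated WT cells (1.01 ± 0.27, adjusted p = 0.015). That call was lost without the 3 libraries that stood apart, without any 1 of WT untreated replicates 1 and 3 and KO untreated replicate 1, and in a fit of the 2 groups alone (adjusted p up to 0.074), and the fall in KO was 0.62 without the 3. HADH had 15.3, 16.3 and 18.3 CPM in KO copper and 43.0, 30.7 and 34.2 CPM in KO untreated libraries (-0.996 ± 0.23, adjusted p = 0.0059). HADH was also lower in KO copper than in WT copper, which had 35.2, 23.5 and 27.1 CPM (-0.81 ± 0.22, adjusted p = 0.032), a call that ended without any 1 of the 3 KO copper libraries, WT copper replicates 1 and 3 or WT untreated replicates 1 and 2 (adjusted p 0.054 to 0.118). Copper in WT gave -0.47 ± 0.21 for HADH (adjusted p = 0.16), and -0.61 (adjusted p = 0.0045) without the 3 libraries.

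HADHA and HADHB, the α and β subunits of the mitochondrial trifunctional protein for long chains, both fell with copper in KO, and HADHB was also higher in KO than in WT in both treatments. HADHA had 337.7, 412.8 and 404.9 CPM in KO copper and 1046, 958.4 and 479.4 CPM in KO untreated libraries, and 625.5, 417.0 and 399.3 CPM in WT copper and 503.2, 514.0 and 526.4 CPM in WT untreated libraries. It fell with copper in KO (-1.01 ± 0.30, adjusted p = 0.023), but the call rested on KO untreated replicates 1 and 2 and gave -0.14 (adjusted p = 0.35) without the 3 libraries that stood apart. Leaving these out gave HADHA calls that all 12 libraries did not: lower with copper in WT (-0.27, adjusted p = 0.017) and lower in KO than in WT untreated (-0.30, adjusted p = 0.041, against 0.58 ± 0.30 and 0.15 with all 12). Leaving out KO untreated replicate 1 or 2, or any 1 KO copper library, also ended the call on the fall in KO, as did a fit of the 2 KO groups alone (adjusted p 0.057 to 0.088). HADHB had 37.8, 40.2 and 40.2 CPM in KO copper and 92.8, 92.2 and 65.0 CPM in KO untreated libraries, and 25.1, 20.5 and 19.8 CPM in WT copper and 43.0, 37.9 and 36.5 CPM in WT untreated libraries. In each treatment every KO library was above every WT library, and in each line every copper library was below every untreated one. KO minus WT was 0.82 ± 0.22 in copper (adjusted p = 0.029) and 0.97 ± 0.21 untreated (adjusted p = 0.0062). Copper minus untreated was -0.96 ± 0.22 in KO (adjusted p = 0.0053) and -0.82 ± 0.22 in WT (adjusted p = 0.026). The fall in KO was 0.55 and KO minus WT untreated was 0.53 without the 3 libraries that stood apart. The WT call ended without any 1 WT untreated library or WT copper replicates 2 or 3 (adjusted p 0.072 to 0.098), and the call in copper without any 1 KO copper library, WT copper replicates 2 or 3 or WT untreated replicate 3 (adjusted p 0.065 to 0.102).

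The 2 subunit genes lie head to head. In RefSeq, HADHA starts at position 26244632 on the minus strand of chromosome 2 and HADHB at 26244939 on the plus strand, with 306 bases between the starts. The 250 bases before HADHB (chr2:26244689-26244938, plus strand, GRCh38.p14) are shown because they lie between the 2 starts, and HADHB, but not HADHA, was called in KO against WT; the difference between the 2 genes was not tested. They hold the GC box GGGCGG, here as its reverse complement in capitals, at 64 to 59 and at 28 to 23 bases before the start. The box is common, in 42.6% of all promoter windows and in 18 of the 25 member windows.
HADHB: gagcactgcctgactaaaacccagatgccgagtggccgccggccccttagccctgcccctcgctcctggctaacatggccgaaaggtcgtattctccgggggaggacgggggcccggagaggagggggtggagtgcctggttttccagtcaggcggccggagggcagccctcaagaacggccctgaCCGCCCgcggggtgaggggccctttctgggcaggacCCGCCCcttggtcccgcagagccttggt

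The dehydrogenases of longer chains, ACADVL and ACADM, had no fall with copper called in the fit of all 12 libraries. ACADVL, the very-long-chain acyl-CoA dehydrogenase, had 78.4, 69.5 and 87.6 CPM in KO copper and 13.9, 28.7 and 63.5 CPM in KO untreated libraries. It was the only member to rise with copper in KO (1.24 ± 0.40, adjusted p = 0.031), where the libraries did not overlap. Without the 3 libraries that stood apart the rise was 0.48 (adjusted p = 0.020), and the call ended in a fit of the 2 groups alone and without any 1 of KO untreated replicates 1 and 2 or KO copper replicates 1 to 3 (adjusted p 0.058 to 0.106). In WT it averaged 82.6 ± 28 CPM in copper and 69.1 ± 7.1 CPM untreated (0.28 ± 0.38, adjusted p = 0.66). For KO against WT untreated, ACADVL was at -1.07 ± 0.40 (adjusted p = 0.057), and at -0.32 without the 3 libraries. With all 12, that difference was called lower by DESeq2 (0.037), limma voom (0.041), with no filter on low counts (0.0049) and with a replicate block (0.030). Without the 3 libraries, ACADVL was higher with copper in WT (0.56) and lower in KO than in WT in copper (-0.40). ACADM, the medium-chain acyl-CoA dehydrogenase, averaged 45.3 ± 9.7 CPM in KO copper, 67.1 ± 19 CPM in KO untreated, 40.4 ± 8.4 CPM in WT copper and 68.9 ± 4.3 CPM in WT untreated libraries. Its copper difference was -0.46 ± 0.24 in KO (adjusted p = 0.16) and -0.74 ± 0.24 in WT (adjusted p = 0.056). Leaving out the 3 libraries made both a fall, by 0.74 in KO (adjusted p = 0.00088) and by 0.88 in WT (adjusted p = 2.5e-05). The WT fall was also called by DESeq2 (0.028), limma voom (0.039) and a fit of the 2 groups alone (0.024).

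ACAA2, a mitochondrial thiolase, had 24.2, 23.0 and 25.9 CPM in KO copper and 48.5, 25.6 and 41.5 CPM in KO untreated libraries. It had 35.8, 34.4 and 34.9 CPM in WT copper and 56.7, 64.0 and 58.1 CPM in WT untreated libraries. The WT untreated libraries were above all others. ACAA2 fell with copper in WT (-0.74 ± 0.21, adjusted p = 0.036) and was lower in KO than in WT untreated (-0.74 ± 0.22, adjusted p = 0.022). The first call ended without any 1 of the 6 WT or 3 KO copper libraries (adjusted p 0.057 to 0.127). The second ended without any 1 WT untreated library or KO untreated replicate 2 (adjusted p 0.051 to 0.073), with no filter on low counts (0.085) and in a fit of the 2 groups alone (0.135). ACAA2, without the 3 libraries that stood apart, was also called lower with copper in KO (-0.59, adjusted p = 0.016) and lower in KO than in WT in copper (-0.59, adjusted p = 0.0068).

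Among the auxiliary enzymes that prepare unsaturated chains, ECI2 and ECI1 were lower in KO copper than in WT copper. ECI2, an enoyl-CoA isomerase found in peroxisomes as well as mitochondria, had 37.0, 44.0 and 46.2 CPM in KO copper, 60.3, 50.2 and 88.2 CPM in KO untreated, 64.6, 73.2 and 71.7 CPM in WT copper and 126.8, 120.1 and 136.5 CPM in WT untreated libraries. The 3 WT untreated libraries were the highest and the 3 KO copper libraries the lowest. KO minus WT was -0.75 ± 0.20 in copper (adjusted p = 0.025) and -1.07 ± 0.20 untreated (adjusted p = 0.0027), and copper lowered it in WT (-0.85 ± 0.19, adjusted p = 0.013). The call in copper ended without any 1 KO copper library or WT copper replicates 2 or 3 (adjusted p 0.063 to 0.120), and the WT copper call without WT untreated replicates 1 or 3 (adjusted p 0.051 to 0.072). Copper in KO gave -0.53 ± 0.20 (adjusted p = 0.055), and -0.88 (adjusted p = 2.1e-05) without the 3 libraries that stood apart.

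ECI1, the mitochondrial isomerase, had 47.4, 65.3 and 57.3 CPM in KO copper and 155.2, 111.6 and 118.7 CPM in KO untreated libraries, which were separate (-1.07 ± 0.21, adjusted p = 0.0026). WT copper libraries had 117.9, 91.5 and 86.8 CPM, all above KO copper (KO minus WT -0.84 ± 0.21, adjusted p = 0.020, lost without WT copper replicate 1 or KO copper replicates 1 or 3, adjusted p 0.071 to 0.10). ECI1 was also called lower with copper in WT without the 3 libraries (-0.43, adjusted p = 0.0048). DECR1, the dienoyl-CoA reductase, fell with copper in WT, with 4.80, 8.71 and 13.2 CPM in WT copper libraries and 24.5, 22.5 and 21.1 CPM in WT untreated libraries (-1.30 ± 0.37, adjusted p = 0.034). That call ended without any 1 WT untreated library, WT copper replicates 1 or 2, or any 1 KO copper library (adjusted p 0.051 to 0.114). In KO, DECR1 averaged 13.6 ± 2.1 CPM in copper and 15.0 ± 8.1 CPM untreated (-0.09 ± 0.37, adjusted p = 0.87), but without the 3 libraries it was called lower with copper (-0.66, adjusted p = 0.044).

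The electron transfer flavoprotein, which takes the electrons of the acyl-CoA dehydrogenases, showed different patterns in its subunits. ETFB, the β subunit, had 879.0, 895.5 and 940.4 CPM in KO copper and 2967, 2349 and 1712 CPM in KO untreated libraries, and 3117, 1918 and 1690 CPM in WT copper and 2404, 2593 and 2725 CPM in WT untreated libraries. The KO copper libraries were below all 9 others. ETFB fell with copper in KO (-1.27 ± 0.29, adjusted p = 0.006; -0.74 without the 3 libraries that stood apart) and was lower in KO than in WT in copper (-1.35 ± 0.29, adjusted p = 0.0097), and both calls held under every alternative tried. Leaving out the 3 libraries added calls of lower ETFB with copper in WT (-0.45, adjusted p = 6.1e-05) and in KO against WT untreated (-0.79, adjusted p = 8.4e-07).

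ETFA, the α subunit, had 206.6, 168.7 and 189.9 CPM in KO copper and 45.7, 48.1 and 190.4 CPM in KO untreated libraries, and 39.5, 101.1 and 168.1 CPM in WT copper and 246.0, 231.1 and 222.9 CPM in WT untreated libraries. The 3 lowest libraries were the 3 that stood apart. No comparison of ETFA passed with all 12 libraries in the quasi-likelihood fit of the filtered genes by group alone. With a replicate block added to that fit, ETFA was called higher with copper in KO (adjusted p = 0.043). It was also called lower in KO than in WT untreated (0.021). KO against WT untreated (-1.43 ± 0.52, adjusted p = 0.053) was called lower by DESeq2 (0.026), by limma voom (0.031) and with no filter on low counts (3.2e-05). With no filter, copper effects were also called, higher in KO (0.0041) and lower in WT (0.0016). The copper effect on ETFA in WT was -0.73 without the 3 libraries (adjusted p = 0.0022), against -1.16 ± 0.51 and 0.15 with all 12. ETFDH, the ubiquinone oxidoreductase that receives the electrons, was scarce, with 1.78, 0.419 and 3.58 CPM in KO copper and 10.1, 7.41 and 4.65 CPM in WT copper libraries (-1.92 ± 0.58, adjusted p = 0.046). That call was lost without KO copper replicates 1 or 2, WT copper replicates 1 or 2, or any 1 WT untreated library (adjusted p 0.064 to 0.142).

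All 3 peroxisomal enzymes fell with copper in KO cells. EHHADH, the peroxisomal bifunctional enzyme and a classical PPARA target, had 7.12, 4.61 and 6.37 CPM in KO copper and 37.4, 59.4 and 34.2 CPM in KO untreated libraries, and 21.9, 12.2 and 14.3 CPM in WT copper and 33.7, 37.3 and 38.5 CPM in WT untreated libraries. KO copper was the lowest group without overlap, and WT copper lay between it and both untreated groups. The fall with copper was 2.70 ± 0.33 in KO (adjusted p = 0.00016), the smallest adjusted p of any member in that comparison, and 1.16 ± 0.30 in WT (adjusted p = 0.022) on the log2 scale. KO minus WT was -1.43 ± 0.34 in copper (adjusted p = 0.015), beside 0.12 ± 0.29 untreated (adjusted p = 0.77). Without the 3 libraries that stood apart the fall in KO was 2.3 ± 0.27. The WT call ended without any 1 WT untreated library or WT copper replicates 2 or 3 (adjusted p 0.056 to 0.095), and the call in copper without WT copper replicate 1 or KO copper replicates 2 or 3 (adjusted p 0.057 to 0.067).

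HSD17B4, the other peroxisomal bifunctional enzyme, had 58.8, 60.3 and 63.7 CPM in KO copper and 305.5, 309.2 and 124.2 CPM in KO untreated libraries, and 134.5, 86.7 and 84.0 CPM in WT copper and 121.3, 115.4 and 125.2 CPM in WT untreated libraries. The KO copper libraries were the lowest of the 12, and the 2 highest were KO untreated replicates 1 and 2. It fell with copper in KO (-1.91 ± 0.34, adjusted p = 0.0014; -0.85 without the 3 libraries that stood apart), and in WT the difference was -0.22 ± 0.32 (adjusted p = 0.69; -0.44 without the 3, adjusted p = 0.0023). KO minus WT in copper was -0.78 ± 0.33 (adjusted p = 0.14; -0.57 without the 3, adjusted p = 0.00033). Higher HSD17B4 in untreated KO than in untreated WT cells (0.92 ± 0.32, adjusted p = 0.047) did not hold: without the 3 libraries it was -0.16 (adjusted p = 0.39), and leaving out any 1 library other than WT copper replicate 1 or KO untreated replicate 3 ended the call (adjusted p 0.057 to 0.166), as did limma voom (0.081) and a fit of the 2 groups alone (0.123). ACAA1, the peroxisomal thiolase, fell with copper in both lines. It had 83.3, 72.8 and 76.0 CPM in KO copper against 115.0, 203.8 and 157.2 CPM in KO untreated libraries (-0.92 ± 0.23, adjusted p = 0.0092), and 60.8, 78.4 and 86.4 CPM in WT copper against 142.6, 145.7 and 126.1 CPM in WT untreated libraries (-0.85 ± 0.23, adjusted p = 0.025). The WT call ended without any 1 WT untreated library or WT copper replicates 1 or 2 (adjusted p 0.061 to 0.091), and the KO call in a fit of the 2 groups alone (adjusted p = 0.055).

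Set side by side, both compartments had lower mean sums with copper in each line, and the peroxisomal sum was a smaller share of the mitochondrial one. The 11 mitochondrial members of the spiral with its auxiliary enzymes summed to 1084 ± 74.5 CPM in KO copper, 2497 ± 681 CPM in KO untreated, 1398 ± 254 CPM in WT copper and 1671 ± 21.1 CPM in WT untreated libraries (SD, n = 3 each). The 3 peroxisomal members summed to 144 ± 5.95 CPM in KO copper, 449 ± 129 CPM in KO untreated, 193 ± 21.2 CPM in WT copper and 295 ± 4.82 CPM in WT untreated libraries. As a percent of the mitochondrial sum, the peroxisomal sum was 14.9%, 12.4% and 12.8% in KO copper and 15.1%, 21.0% and 18.2% in KO untreated libraries, and 12.8%, 14.1% and 14.8% in WT copper and 18.1%, 17.8% and 17.2% in WT untreated libraries. Copper libraries were below untreated libraries in both lines, in KO by a narrow margin, 14.9% in copper replicate 1 against 15.1% in untreated replicate 1. WT copper replicate 1, at 1691 CPM, was above the WT untreated libraries in the mitochondrial sum. These sums are a description with no test, and HADHA with ECHS1 made up 52.9% to 70.6% of the mitochondrial sum. In WT they made up 52.9% to 55.0% untreated and 58.4% to 65.3% in copper, and neither was called with copper there with all 12 libraries. The other 9 mitochondrial members summed to 755 to 782 CPM in WT untreated and 495 to 587 CPM in WT copper libraries. In KO they summed to 718 to 984.5 CPM untreated and 363 to 412 CPM in copper. The lower peroxisomal share in WT copper thus rested largely on HADHA and ECHS1. Counted with the peroxisome, where it also occurs, ECI2 raised the shares to 18.0% in KO copper, 21.8% in KO untreated, 20.1% in WT copper and 27.4% in WT untreated cells.

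By counts, 6 of 11 mitochondrial and 3 of 3 peroxisomal members fell with copper in KO cells, and 4 of 11 and 2 of 3 in WT cells. Over all tested genes, 18.5% fell in KO and 6.68% in WT. In KO against WT untreated, 2 mitochondrial members were higher and 2 lower, and 1 peroxisomal member was higher. The mitochondrial counts were near the shares of all tested genes, 17.9% higher and 14% lower. In KO against WT in copper, 1 mitochondrial member was higher and 3 lower, and 1 peroxisomal member was lower. There, 5.77% of all tested genes were higher and 8.03% lower. The median log2 fold change with copper was -1.91 over the peroxisomal and -0.96 over the mitochondrial members in KO, and -0.85 and -0.54 in WT. Without the 3 libraries that stood apart these medians were -0.85 and -0.66 in KO, and -0.68 and -0.72 in WT, so the gap between the compartments was narrower in KO and of the other sign in WT. Among genes outside the list, described further below, the order with all 12 libraries was the other way in both lines. Their medians were -0.60 over 25 peroxisomal and -1.15 over 19 mitochondrial acyl-CoA genes in KO, and -0.51 and -0.70 in WT. Whether the compartments differ was not tested.

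**Figure D3:**
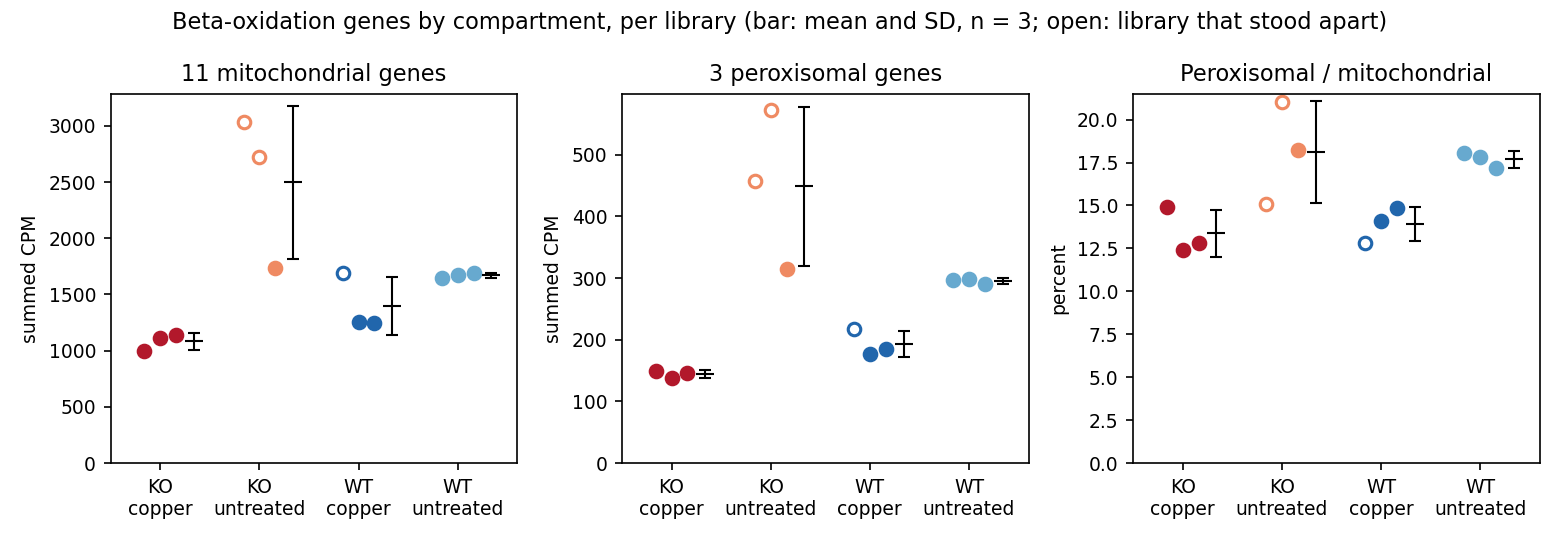
Summed CPM of the 11 mitochondrial members, of the 3 peroxisomal members, and the peroxisomal sum as a percent of the mitochondrial sum, in each library (points) with group mean and SD (bars), and open points for the 3 libraries that stood apart. The percent is 12.4 to 14.9 in KO copper and 12.8 to 14.8 in WT copper libraries, below 15.1 to 21.0 in KO untreated and 17.2 to 18.1 in WT untreated libraries.

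Among PPARA targets outside β-oxidation, PLIN2, ANGPTL4 and FABP1 were lower in KO cells in both treatments. PLIN2, the coat protein of lipid droplets, had 734.4, 672.4 and 646.6 CPM in KO copper and 551.5, 401.4 and 780.9 CPM in KO untreated libraries, and 1389, 1558 and 1720 CPM in WT copper and 1928, 1792 and 1778 CPM in WT untreated libraries. Every KO library was below every WT library. The difference, KO minus WT, was -1.22 ± 0.23 in copper (adjusted p = 0.0049) and -1.80 ± 0.23 untreated (adjusted p = 0.0004), and both calls held under every alternative. The copper difference was 0.37 ± 0.23 in KO (adjusted p = 0.22) and -0.21 ± 0.23 in WT (adjusted p = 0.57).

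FABP1, the liver fatty acid-binding protein, had 18.9, 14.2 and 15.9 CPM in KO copper and 22.2, 14.3 and 181.6 CPM in KO untreated libraries, and 39.5, 123.3 and 202.9 CPM in WT copper and 713.9, 772.0 and 630.3 CPM in WT untreated libraries. The WT untreated libraries were far above all others, and in KO untreated and WT copper cells the libraries that stood apart were the low ones. Relative to WT, KO was at -2.92 ± 0.79 in copper (adjusted p = 0.029) and -3.40 ± 0.77 untreated (adjusted p = 0.0073; -2.16 without the 3 libraries). Copper lowered FABP1 in WT (-2.51 ± 0.74, adjusted p = 0.040), and in KO the difference was -2.03 ± 0.77 (adjusted p = 0.060), or -3.28 (adjusted p = 2e-06) without the 3. The WT copper call ended without any 1 WT untreated library, WT copper replicates 1 or 2, or any 1 KO copper library (adjusted p 0.063 to 0.125), and the call in copper without any 1 KO copper library or WT copper replicates 2 or 3 (adjusted p 0.068 to 0.106).

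ANGPTL4, a secreted inhibitor of lipoprotein lipase, was close to the counting limit in KO cells. It had 0.712, 1.68 and 1.59 CPM in KO copper and 0, 2.05 and 8.54 CPM in KO untreated libraries, and 11.7, 6.97 and 10.5 CPM in WT copper and 46.7, 47.5 and 48.0 CPM in WT untreated libraries. WT untreated libraries held 177, 182 and 171 counts, while the KO copper libraries held 2, 4 and 4. Copper lowered it in WT (-2.26 ± 0.49, adjusted p = 0.010, lost without WT copper replicate 2, adjusted p = 0.059). KO minus WT was -2.89 ± 0.68 in copper (adjusted p = 0.016, lost without any 1 KO copper library, adjusted p 0.053 to 0.083) and -3.54 ± 0.55 untreated (adjusted p = 0.0012; -2.67 without the 3 libraries that stood apart). Copper in KO gave -1.60 ± 0.76 (adjusted p = 0.12), and -2.50 (adjusted p = 7e-05) without the 3.

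ACOT2 and ACOT1, mitochondrial and cytosolic acyl-CoA thioesterases, are near-identical genes whose counts may have been split. ACOT2 had 32, 23 and 20 counts in KO copper and 0, 0 and 128 counts in KO untreated libraries, and 1, 31 and 57 counts in WT copper and 190, 187 and 175 counts in WT untreated libraries. ACOT1 had 0, 0 and 0 counts in KO copper, 16, 6 and 1 in KO untreated, 0, 0 and 0 in WT copper, and 2, 5 and 0 in WT untreated libraries. The 3 libraries with 0 or 1 ACOT2 count were the 3 that stood apart. Summed over both genes the level was 7.96 to 11.4 CPM in KO copper, 6.14 to 39.4 CPM in KO untreated, 0.534 to 22.1 CPM in WT copper and 49.1 to 50.6 CPM in WT untreated libraries. No ACOT2 comparison passed in the quasi-likelihood fit of the filtered genes with all 12 libraries. Copper in WT was called lower with no filter on low counts (adjusted p = 6.2e-07) and in a fit of the 2 groups alone (0.030). KO against WT untreated was called lower with no filter (adjusted p = 2.6e-06) and by limma voom (0.0496). Without the 3 that stood apart, ACOT2 was called lower in all 4: with copper in KO (-1.82, adjusted p = 1.9e-07) and WT (-1.39, adjusted p = 2.6e-07), and in KO against WT in copper (-0.97, adjusted p = 0.0023) and untreated (-0.54, adjusted p = 0.038).

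The remaining targets gave almost no reads. VNN1, the pantetheinase vanin 1, had 9, 10 and 9 counts in KO copper, 6, 0 and 3 in KO untreated, 2, 1 and 9 in WT copper, and 11, 3 and 7 in WT untreated libraries. PDK4, the kinase that shuts pyruvate dehydrogenase, had 1 count in WT untreated replicate 1 and FGF21, the fasting hormone, 1 count in KO copper replicate 2, with 0 elsewhere. CYP4A11, the fatty acid ω-hydroxylase, had 0 in all 12 libraries; its near-identical neighbour CYP4A22 was also at 0, so reads shared by both may have been dropped. At this depth no difference could be shown for these 4 genes.

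**Figure D4:**
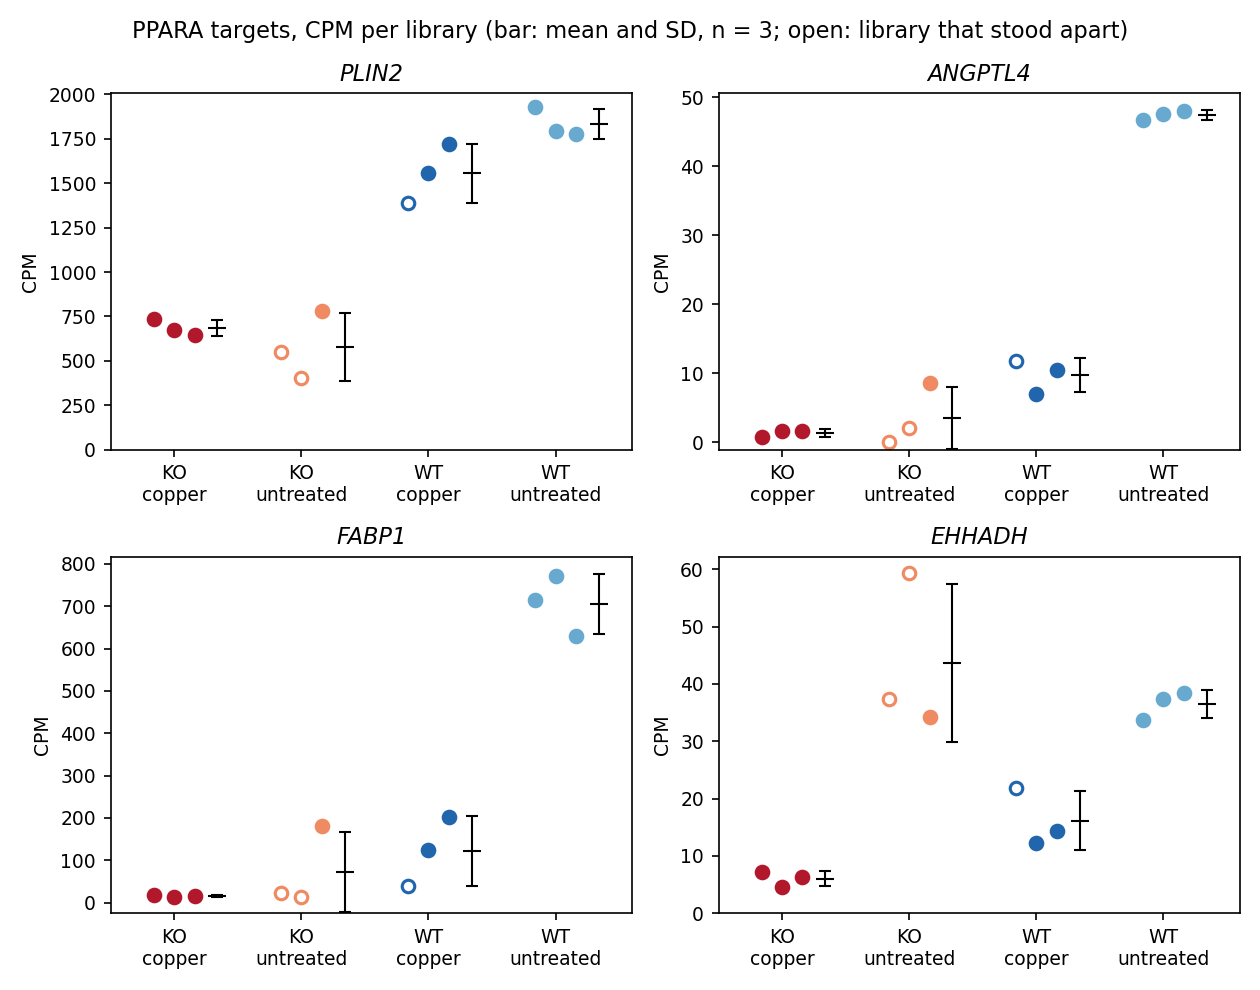
CPM of PLIN2, ANGPTL4, FABP1 and EHHADH in each library (points) with group mean and SD (bars), with open points for the 3 libraries that stood apart. PLIN2 is at 401.4 to 780.9 CPM in KO libraries and 1389 to 1928 CPM in WT libraries, while EHHADH is lowest in KO copper at 4.61 to 7.12 CPM.

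Whether copper acted differently in the lines was tested as the difference of the 2 copper effects, KO minus WT. None of the 27 tested members passed with edgeR's quasi-likelihood test, where 1.26% of all tested genes passed as higher and 3.67% as lower (4.93% in all). By other measures, 11 members had an unadjusted p under 0.05, beside 32.6% of all tested genes, DESeq2 called 8 members, beside 16.6%, and limma voom 0, beside 1.47%. The smallest adjusted p values were 0.052 for HSD17B4 (-1.70 ± 0.46), 0.053 for ECHS1 (-1.37 ± 0.38), 0.056 for ACADS (-1.64 ± 0.47), 0.056 for EHHADH (-1.55 ± 0.44) and 0.062 for PPARA (-1.23 ± 0.37). In the other direction were CPT1A (1.41 ± 0.46, adjusted p = 0.073) and ETFA (2.27 ± 0.73, adjusted p = 0.073). This count turned on KO untreated replicate 3. Without it 18 of 29 tested members passed, 9 in each direction, where 25.7% of all tested genes passed as higher and 25.8% as lower. Without WT copper replicate 3 it was 1, and without the 3 libraries that stood apart 3 passed, beside 8.78% of all tested genes, which were ECHS1 (-0.49, adjusted p = 0.026), ETFA (0.89, adjusted p = 0.045) and FABP1 (-1.24, adjusted p = 0.044). With all 12 libraries, ECHS1 was called lower by DESeq2 (adjusted p = 0.0089), with no filter on low counts (0.0097) and with relative log expression scaling (0.048). HSD17B4 was called lower in the same 3 fits (0.010, 0.0011 and 0.048). A larger fall of a member in one line than in the other therefore depended on the method and libraries, and the fit used for calls here does not show it.

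**Figure D5:**
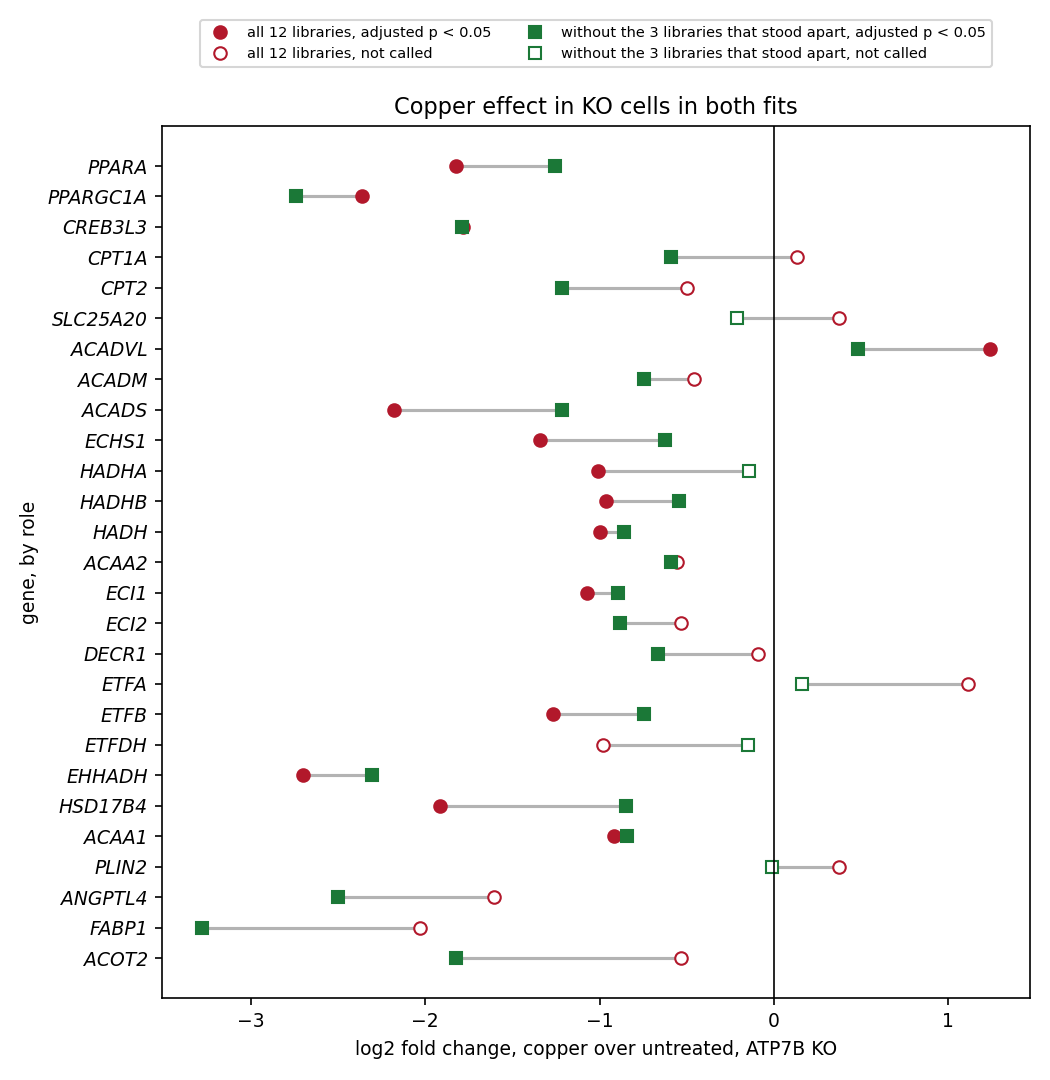
Log2 fold change with copper in KO cells for each tested member, with all 12 libraries and without the 3 that stood apart, joined by a line. EHHADH, PPARA, PPARGC1A and CREB3L3 stay below -1 in both, HADHA lies at -1.01 with all 12 and at -0.14 without the 3, and CPT1A lies at 0.13 with all 12 and at -0.59 without them.

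The wider pathway was read through 106 further genes, of which 105 were matched and 80 tested. With copper, 6 rose and 30 fell in KO cells and 3 rose and 17 fell in WT cells. KO against WT gave 5 higher and 9 lower in copper and 14 higher and 11 lower untreated. Over all tested genes, 18.5% fell and 15.2% rose with copper in KO, and 6.68% fell and 8.23% rose in WT. The KO against WT counts were near the shares of all tested genes, which were 5.77% higher and 8.03% lower in copper and 17.9% higher and 14% lower untreated. The medians were -0.50 and -0.55 for copper in KO and WT, and 0.06 and -0.11 for KO against WT in copper and untreated. The genes named next are among those with the smallest adjusted p of their list.

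RXRA, the partner of PPARA on DNA, was lowest in KO copper cells, as PPARA was. It averaged 34.0 ± 3.3 CPM in KO copper, 147 ± 25 CPM in KO untreated, 108 ± 22 CPM in WT copper and 159 ± 3.0 CPM in WT untreated libraries (SD, n = 3 each). It fell with copper in KO (-2.00 ± 0.22, adjusted p = 8.3e-05) and was lower in KO than in WT in copper (-1.70 ± 0.22, adjusted p = 0.00059), and both held under every alternative. Its copper effects differed between the lines (-1.46 ± 0.30, adjusted p = 0.034), a call that ended without any 1 library other than WT copper replicate 3 or KO untreated replicate 3 (adjusted p up to 0.112), although it held without the 3 that stood apart (-0.98). PPARD, a sister receptor, went the other way and rose with copper in KO (1.72, adjusted p = 0.0063).

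Of 25 tested peroxisomal genes outside the list, 10 fell with copper in KO and 5 in WT, and none rose. Beside these, 18.5% of all tested genes fell and 15.2% rose in KO, and 6.68% fell and 8.23% rose in WT. PECR, the peroxisomal enoyl-CoA reductase, fell with copper by 1.90 in KO (adjusted p = 0.00036) and by 1.57 in WT (adjusted p = 0.0022).

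Of 19 further mitochondrial acyl-CoA genes, 10 fell and 1 rose with copper in KO, and 6 fell in WT. The shares of all tested genes were 18.5% and 15.2% in KO, and 6.68% lower in WT. ACADSB, the dehydrogenase of short branched chains, averaged 57.0 ± 2.7 CPM in KO copper, 262 ± 83 CPM in KO untreated, 50.2 ± 6.2 CPM in WT copper and 122 ± 11 CPM in WT untreated libraries, and fell in both lines (-2.09, adjusted p = 0.00017 in KO; -1.25, adjusted p = 0.0072 in WT).

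Of 10 tested uptake and activation genes, 2 were higher and 1 lower in KO than in WT in copper, and 2 were higher and 4 lower untreated. Over all tested genes, 5.77% were higher and 8.03% lower in copper, and 17.9% higher and 14% lower untreated. The 1 lower in copper and the 2 higher untreated were near these shares. CD36, a fatty acid translocase, averaged 16.7 ± 2.2 CPM in KO copper, 31.1 ± 2.3 CPM in KO untreated, 3.42 ± 1.3 CPM in WT copper and 4.46 ± 1.6 CPM in WT untreated libraries, and was higher in KO in copper (2.21, adjusted p = 0.0013) and untreated (2.66 ± 0.30, adjusted p = 0.0002). ACSL3, an acyl-CoA synthetase of lipid droplets, went the opposite way, with 199 ± 8.2 CPM in KO copper, 267 ± 25 CPM in KO untreated, 498 ± 47 CPM in WT copper and 921 ± 19 CPM in WT untreated libraries, and was lower in KO in copper (-1.35, adjusted p = 0.00066) and untreated (-1.90 ± 0.18, adjusted p = 5.5e-05). SLC27A2, a fatty acid transporter and very-long-chain acyl-CoA synthetase, fell with copper in KO (-1.41, adjusted p = 0.0032) and WT (-2.40, adjusted p = 0.00035). Among the further PPARA targets, APOA5, which promotes triglyceride clearance, averaged 26.6 ± 0.78 CPM in KO copper, 156 ± 60 CPM in KO untreated, 26.5 ± 8.5 CPM in WT copper and 80.2 ± 3.3 CPM in WT untreated libraries, and fell in both lines (-2.43, adjusted p = 0.00013 in KO; -1.57, adjusted p = 0.0037 in WT). These calls on CD36, ACSL3, SLC27A2 and APOA5 held under every alternative tried.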

How the data were processed

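QuantSeq 3′ libraries were made from 100 ng of total RNA and read single-end for 75 bp, per the labels' protocols. STAR 2.3.0, HTSeq and the hg19 build are named in the submitters' processing notes, while the sources used here give no annotation release, strand setting or filter. The authors deposited raw read counts per gene, with no normalization; the kit description names no molecular identifiers.

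IDs were matched to symbols without their version, and 99.5% of counts fell in named IDs. Testing used edgeR 4.0.16 (R 4.3.3, limma 3.58.1): filterByExpr kept 11051 genes, scaling was by trimmed mean of M values, and 4 group means were fitted by robust quasi-likelihood over all 12 libraries. P-values were adjusted by Benjamini-Hochberg over all tested genes and called at 0.05. The biological coefficient of variation was 29.1%. Standard errors were derived from the log2 fold change and its F statistic.

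Alternatives were relative log expression factors, no filter, DESeq2 1.42.0, limma voom, a fit of only the 2 groups compared, a replicate block, and omission of 3 libraries or of each library. The steps were tested on simulated data in which no library was made to stand apart, so that test does not cover the 3 libraries that did. All 32 members could be named, and of the wider lists the 4 genes with the smallest adjusted p per list and comparison; some of these are not reported here. Members and lists were chosen with earlier results of these data known. Same-numbered libraries were not taken as pairs. Promoter windows came from RefSeq (GRCh38.p14); hg19 coordinates were not used here.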

Additional observations from a re-analysis of the deposited data

How the results depend on the processing

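Of the calls on members, 11 of 14 for copper in KO, 1 of 11 (PPARGC1A) for copper in WT, 3 of 12 (PPARA, ETFB and PLIN2) for KO against WT in copper and 6 of 10 for KO against WT untreated held under every alternative. Leaving out 1 library at a time gave 12 to 20 members called for copper in KO and 2 to 16 for copper in WT. For KO against WT it gave 4 to 16 in copper and 7 to 19 untreated, and 0 to 18 for the difference of copper effects. Over all tested genes these fits called 20.7% to 58.1% for copper in KO and 6.4% to 33.1% for copper in WT. The shares for KO against WT were 5.9% to 31.2% in copper and 17.9% to 59% untreated, and 0.113% to 51.5% for the difference. Without the 3 libraries that stood apart the counts were 22 for copper in KO, 23 for copper in WT and 3 for the difference. A fit of the 2 groups alone gave 6 for KO against WT untreated, beside 13.2% of all tested genes. For the difference, DESeq2 and the fit with no filter each gave 8, and relative log expression factors 2. Over all tested genes these called 16.6%, 9.77% and 6.28%, in that order.

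Signs turned, among calls, without the 3 libraries for CPT1A with copper in KO (-0.59), for KO against WT untreated in ACADS (-0.35), HADHA (-0.30) and HSD17B4 (-0.16), and for the difference in FABP1 (-1.24). ACOT2 with copper in KO ran from -1.07 to 7.61 over the omissions of 1 library, the highest without KO untreated replicate 3. The cause was not tested. Counting ECI2 as peroxisomal moved the peroxisomal sum to 187 CPM in KO copper, 263 CPM in WT copper and 423 CPM in WT untreated, the mitochondrial sum to 1543 CPM in WT untreated, and the ratio to 18.0% in KO copper, 21.8% in KO untreated, 20.1% in WT copper and 27.4% in WT untreated. TMM scaling gave 1711 and 302 CPM for the 2 sums in WT untreated.

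Replicate numbers were not shown to pair the libraries: of 18 same-numbered pairs, 2 had deviations correlated above 0.1, with a range of -0.221 to 0.61. Those 2, WT copper with KO untreated for replicate 3 (0.61) and replicate 1 (0.495), were the highest of all pairs between groups. Deviations within a group of 3 sum to 0 and 3 libraries stood apart, so the check cannot exclude pairing. A replicate block gave 2 members higher and 13 lower for copper in KO, and 0 and 10 for copper in WT. For KO against WT it gave 1 and 10 in copper and 2 and 9 untreated, and for the difference 0 and 0. Over all tested genes the block called 33.6%, 13.5%, 11.5%, 31.9% and 1.02% in these comparisons, in that order. The block ended the calls on ACAA2 for copper in WT (adjusted p = 0.051), HSD17B4 for KO against WT untreated (0.059) and ETFDH for KO against WT in copper (0.061), and made ETFA a call for copper in KO (0.043) and, with ACADVL (0.030), for KO against WT untreated (0.021). Depth limits PPARGC1A, ETFDH and ANGPTL4 in KO cells, where libraries held few counts.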
